A study of Mus musculus with 22 samples.

Results

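RNA polymerase II (PolII) occupancy was examined at 50 genes that encode splicing regulators and core spliceosome proteins. They are the autosomal protein-coding genes of GENCODE vM1 (mouse build mm9) whose symbols begin with Srsf, Tra2, Hnrnp, Snrp, Sf3a or Sf3b, out of 21418 autosomal protein-coding genes in all. The 13 Srsf and Tra2 genes encode serine/arginine-rich (SR) proteins, the 17 Hnrnp genes heterogeneous nuclear ribonucleoproteins (hnRNPs), the 12 Snrp genes proteins of the small nuclear ribonucleoprotein particles (snRNPs), and the 8 Sf3a and Sf3b genes subunits of splicing factor 3 (SF3).

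SR proteins bind exonic enhancers and help the spliceosome to choose splice sites, whereas many hnRNPs coat nascent transcripts and often repress nearby sites. The Sm proteins among the Snrp products form the ring around the spliceosomal small nuclear RNAs, and SF3 anchors the U2 particle at the branch point. Several SR and hnRNP genes are known to control their own messenger RNA through exons that lead to its decay, and SR proteins are heavily phosphorylated during mitosis.

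PolII chromatin immunoprecipitation was carried out in G1E-ER4 cells, an erythroid precursor line of the mouse. Both Ctcf alleles of the line carried an auxin-inducible degron with mCherry, and the plant receptor OsTiR1 was supplied by transduction. All cells were arrested in prometaphase with 200 ng/ml nocodazole, and were collected at 0 h or released for 1 h (early-G1), 2 h (mid-G1) or 4 h (late-G1). Auxin cells received auxin during the last 4 h of the arrest and throughout release to deplete CTCF, and control cells carried the same alleles and had the same nocodazole without auxin. Per the study's methods, fixed cells were then sorted. Prometaphase cells were taken by the mitotic antigen pMPM2 and DNA content, and G1 cells by DNA content. Control cells were gated as mCherry-positive and auxin cells as mCherry-negative. Each stage was represented by 2 control and 2 auxin libraries, except mid-G1 with 3 and 3, so that 4 prometaphase and 14 post-mitotic lists were available. Late-G1 auxin replicate 1 was taken as labelled. The study's reporting summary lists it among the read files, but its peak files name a late-G1 control replicate 1 and no late-G1 auxin replicate 1. The labels call the libraries biological replicates. The 10 erythroid precursor markers checked (Tal1, Gata2, Kit and others) had a peak in all 14 post-mitotic lists, while of 16 markers of T, B, myeloid and other cells only Lck and Csf1r did. These are bulk libraries, so fewer cells with PolII at a gene and less PolII per cell cannot be told apart.

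Each prometaphase list held 2414 to 3918 peaks and each post-mitotic list 50594 to 117125, with the smallest post-mitotic list from mid-G1 control replicate 1. A gene was called detected when a peak overlapped the gene extended by 500 bp on both sides by at least 1 bp. Its strongest peak was the one with the highest fold enrichment over background, and the genes detected in a list were ranked by that value, with rank 1 the strongest. Every stage was called against its own input library, so stage and input cannot be told apart. Another protein-coding gene overlapped the window of 19 members, and 15 had the start of another gene within 1000 bp of their own, among them Srsf2 (Mfsd11), Srsf7 (Ttc39d), Srsf11 (Lrrc40) and Hnrnpk (Rmi1). Peaks there cannot be assigned to either gene.

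Srsf3, Srsf7, Srsf2, Srsf5 and Srsf6 are the SR genes on which most of the results turn, and their strongest peak had its summit close to the annotated start in every one of the 18 lists. The summit lay between -13 and 46 bp from the start of Srsf3, between 1 and 70 bp for Srsf7, between 24 and 70 bp for Srsf2, between 27 and 57 bp for Srsf5 and between 31 and 171 bp for Srsf6. Their promoters are therefore printed below with that of Snrpd3, an Sm protein gene with no prometaphase peak. Each runs from 250 bases before to 30 bases after the annotated start in mm9, read in the direction of transcription, with matches to the motifs searched in capitals.
Srsf3 (chr17:29169368-29169647, + strand): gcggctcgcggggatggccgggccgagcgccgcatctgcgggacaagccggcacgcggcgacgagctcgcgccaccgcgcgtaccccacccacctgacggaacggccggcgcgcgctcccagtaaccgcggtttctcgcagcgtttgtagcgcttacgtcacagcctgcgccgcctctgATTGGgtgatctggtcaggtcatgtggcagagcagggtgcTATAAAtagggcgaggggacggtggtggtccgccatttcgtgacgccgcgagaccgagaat
Srsf7 (chr17:80606600-80606879, - strand): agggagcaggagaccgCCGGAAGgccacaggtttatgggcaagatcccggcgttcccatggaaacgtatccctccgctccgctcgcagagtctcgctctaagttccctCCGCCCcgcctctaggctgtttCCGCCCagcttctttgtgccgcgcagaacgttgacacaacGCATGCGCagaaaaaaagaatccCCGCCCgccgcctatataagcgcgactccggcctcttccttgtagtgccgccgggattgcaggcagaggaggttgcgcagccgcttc
Srsf2 (chr11:116714379-116714658, - strand): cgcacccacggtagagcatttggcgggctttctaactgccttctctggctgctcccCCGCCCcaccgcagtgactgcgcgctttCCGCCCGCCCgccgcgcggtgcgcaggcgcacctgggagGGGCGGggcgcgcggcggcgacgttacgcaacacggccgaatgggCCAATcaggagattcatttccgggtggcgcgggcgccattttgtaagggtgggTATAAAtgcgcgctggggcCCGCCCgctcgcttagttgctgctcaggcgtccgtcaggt
Srsf5 (chr12:82046241-82046520, + strand): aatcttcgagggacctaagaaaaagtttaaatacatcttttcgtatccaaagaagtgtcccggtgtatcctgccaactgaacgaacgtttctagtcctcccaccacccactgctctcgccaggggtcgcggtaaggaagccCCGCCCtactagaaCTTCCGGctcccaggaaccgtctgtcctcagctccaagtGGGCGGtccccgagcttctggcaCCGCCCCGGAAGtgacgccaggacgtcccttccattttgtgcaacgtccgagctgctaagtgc
Srsf6 (chr2:162757014-162757293, + strand): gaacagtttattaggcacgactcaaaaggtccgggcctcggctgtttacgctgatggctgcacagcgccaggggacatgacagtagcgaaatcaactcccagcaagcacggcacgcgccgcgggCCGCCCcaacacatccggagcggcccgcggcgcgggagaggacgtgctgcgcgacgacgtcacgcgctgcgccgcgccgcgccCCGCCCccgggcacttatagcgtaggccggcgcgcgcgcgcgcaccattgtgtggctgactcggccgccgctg
Snrpd3 (chr10:74980537-74980816, + strand): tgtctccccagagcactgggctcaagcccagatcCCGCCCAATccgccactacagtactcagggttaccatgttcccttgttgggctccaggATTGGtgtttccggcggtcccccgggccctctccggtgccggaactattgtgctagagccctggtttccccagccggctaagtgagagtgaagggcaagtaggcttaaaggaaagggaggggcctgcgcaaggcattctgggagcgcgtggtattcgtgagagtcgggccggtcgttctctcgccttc

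Letters were searched on both strands from 250 bp before to 50 bp after the start. TATAAA began at -31 in Srsf3 and at -29 in both Srsf2 and Hnrnpab, the distance at which a TATA box is usually found. Over all members it was no more frequent than elsewhere, with 5 of 50 (10%) against 13.5% of all genes. The GC box GGGCGG was present in 31 members (62%, against 43.7%), CCAAT in 24 (48%, against 37.6%) and the ETS core CCGGAAG in 16 (32%, against 10.9%). The NRF1 core GCGCATGC was found in Srsf7 only, at -80 on the opposite strand (2% of members, 3.35% of all genes), and the YY1 letters AAGATGGCG in Sf3a1 only (2%, against 1.84%). Of the letters taken from the CTCF motif, CCACNAGG was in no member promoter (5.15% of all genes) and GGNGGCAG in 5 (10%, against 13.5%). The median GC content of this window was 58.2% in members and 55.3% in all genes. The matches describe these windows and were not tested.

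In prometaphase, when most genes had no PolII peak, SR and hnRNP genes stood out as a group. A peak was present at 25 and 27 of the 50 members in the control lists and at 29 and 26 in the auxin lists, compared with 10.8%, 9.34%, 9.15% and 6.74% of all genes. In all 4 lists together 24 members (48%) were detected, against 4.35% of all genes. They comprised 9 of 13 SR genes and 12 of 17 hnRNP genes but 1 of 12 snRNP genes (Snrpg) and 2 of 8 SF3 genes (Sf3b1 and Sf3b4). Of 112 other splicing genes, such as Prpf, Lsm and Snrnp genes, 20 (17.9%) were detected in all 4. The counts of control and auxin lists overlapped in every group, and no test was run on them.

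**Figure D1:**
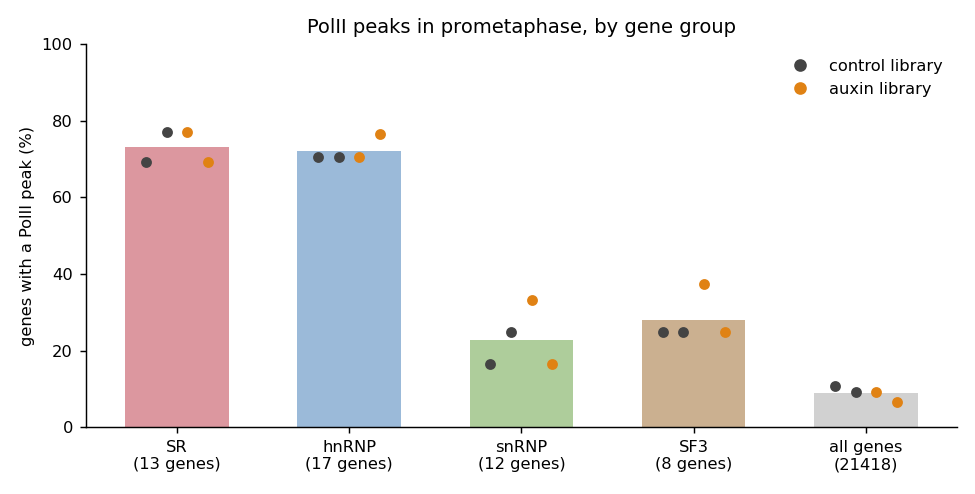
Share of genes with a PolII peak in each prometaphase library (y axis, percent) for the 4 groups of splicing genes and for all 21418 genes. Bars are means over the 4 libraries and points are single libraries. Each library has a peak at 9 or 10 of 13 SR genes and at 12 or 13 of 17 hnRNP genes, while all genes lie between 6.74% and 10.8%.

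This detection followed how strong a gene was after mitosis. Of the 9383 genes with a peak in all 14 post-mitotic lists, 9.9% were detected in all 4 prometaphase lists, and of the 49 members among them 24 (49%) were. All 9 members with a mean post-mitotic rank up to 500 had a peak in every prometaphase list, as had 90.1% of the 362 genes in that band. All 8 members between 500 and 1000 had one, compared with 52.8% of 358 genes. Between 1000 and 2000 the figures were 3 of 4 members and 23.4% of genes, and between 2000 and 4000 they were 4 of 16 and 6.46%. None of the 12 members beyond 4000 was detected in all 4 lists, against 0.963% of genes.

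Srsf3 and Srsf7 ranked among the 12 strongest genes in each prometaphase list. Srsf3 (chr17:29169618-29180311), which encodes the smallest SR protein and couples splicing to mRNA export, ranked 8 and 2 in the control and 4 and 2 in the auxin prometaphase libraries. Srsf7 (chr17:80599429-80606629), its close relative, ranked 4 and 5 in control and 10 and 12 in auxin libraries. Srsf2 (chr11:116711215-116714408), known for binding exonic enhancers, ranked 34 and 34 in control and 20 and 20 in auxin libraries. These ranks were out of 1443 to 2312 detected genes and are therefore not directly comparable with ranks after mitosis.

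Other members followed at some distance. Srsf5 ranked 81 and 85 in control and 77 and 94 in auxin libraries. Hnrnph1, which encodes a protein that binds G-rich elements, ranked 92 and 104 in control and 102 and 73 in auxin libraries. Hnrnpa2b1 (135 to 224), Tra2b (185 to 249), Hnrnpul1 (185 to 309), Sf3b1 (228 to 331), Srsf11 (230 to 429), Hnrnpab (179 to 388) and Hnrnpa1 (261 to 763) completed the 12 members with the best mean rank among those in all 4 lists. The prometaphase peak of Srsf11 had its summit at -181 to -72 bp from the start, which lies close to that of Lrrc40. After mitosis its strongest peak lay 4931 to 27027 bp downstream of the start in 11 of 14 lists.

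The fold enrichment of Srsf3 in prometaphase was close to that in mid-G1 but lower than that in early-G1. Its strongest peak had a fold enrichment of 51.4 and 58.2 in control and 55.5 and 53.5 in auxin prometaphase libraries, and of 43.8 to 79.2 after mitosis. The 4 prometaphase values lay inside the mid-G1 range (43.8 to 62.1). They lay below all 4 early-G1 values (73.4 to 79.2) and below every late-G1 value except that of control replicate 3 (50.5). The ratio of its post-mitotic to its prometaphase median was 1.2, the 4th lowest of the 929 genes with a peak in all 18 lists, whose median ratio was 4.21. Srsf11 (1.83), Srsf7 (2.21), Srsf5 (2.24), Srsf2 (2.36), Tra2b (2.63) and Hnrnph1 (2.64) followed among the members. At the other end Hnrnpk, which had fold enrichments of 7.66 to 8.25 in prometaphase and 31.1 to 71.3 afterwards, had a ratio of 6.42. The median over the 24 members was 4.12, close to that of all 929 genes. A ratio can set different peaks of a gene against each other. The summit for Hnrnpk lay 773 to 883 bp from its start in prometaphase and mostly beyond its annotated end afterwards. The summit for Srsf11 lay near its start in prometaphase and mostly further downstream afterwards.

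**Figure D2:**
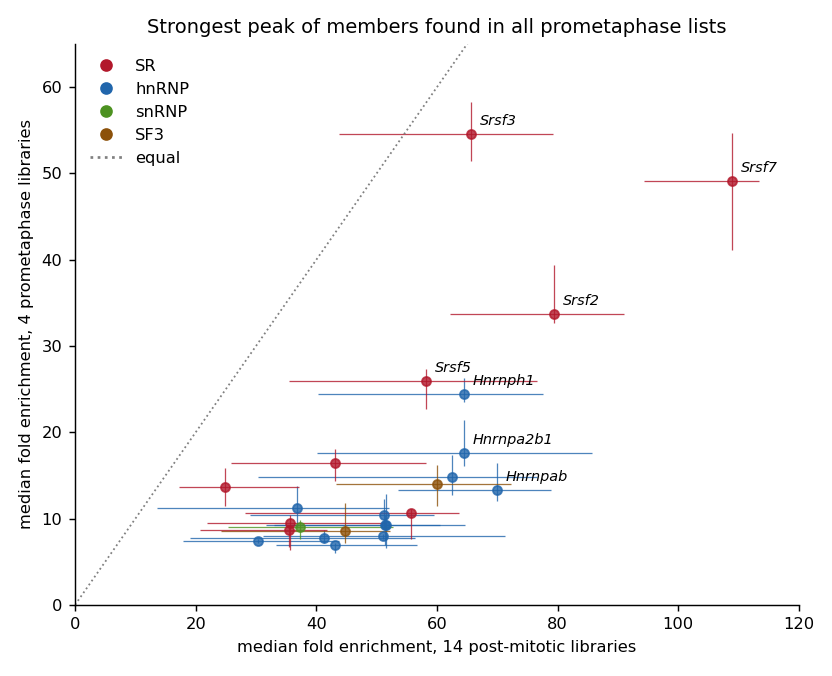
Median fold enrichment of the strongest peak in the 4 prometaphase libraries (y axis) against the median in the 14 post-mitotic libraries (x axis) for the 24 members found in all 18 lists. Lines span the lowest to the highest library and the dotted line marks equal values. The strongest peak can be a different one before and after mitosis, as for Hnrnpk and Srsf11. Srsf3 (54.5 and 65.7) is the member nearest that line.

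Peaks covered a smaller share of the gene windows in prometaphase than in G1, where the lists also held more peaks. The median covered share of the gene window among detected members was 4.6% to 6.89% in the prometaphase lists and 32.7% to 79.4% in the post-mitotic ones, while among all detected genes it was 1.71% to 2.03% and 5.06% to 16.2%. Srsf2 was the most fully covered gene of the set in prometaphase, at 34.7% to 54.0% of its window. A peak within 500 bp of the start was found in all 4 prometaphase lists for 17 members, against 670 of all 21418 genes. One within 500 bp of the end was found in all 4 for 3 members (Hnrnpa2b1, Hnrnpa3 and Hnrnpu), against 0.868% of all genes.

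After mitosis most splicing genes had PolII peaks both at the start and at the end. Peaks were found in all 14 post-mitotic lists for 49 members, compared with 43.8% of all genes. Srsf12 had no peak in any of the 18 lists. The other 49 were detected in all 7 control and all 7 auxin lists. Both the start and the end had a peak in all 14 lists for 34 members, against 12% of all genes. Among them were 10 of 13 SR, 11 of 17 hnRNP, 5 of 12 snRNP and all 8 SF3 genes.

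In each of the 14 post-mitotic libraries the median ranks of SR and hnRNP genes were better than those of SF3 and snRNP genes. The median rank of SR genes was 455.5 to 614 in the early-G1 libraries, that of hnRNP genes 561 to 1006, that of SF3 genes 2705.5 to 3765.5 and that of snRNP genes 3410.5 to 4570. In late-G1 the medians were 1146.5 to 2336 for SR, 775 to 1732 for hnRNP, 2563.5 to 3715.5 for SF3 and 4432 to 5062 for snRNP genes. The snRNP median was the weakest of the 4 groups in all libraries but mid-G1 auxin replicate 3, where it was 2879 against 3728 for SF3 genes. Srsf7 was the strongest member, with ranks of 2 to 29 over the 14 libraries (median 9.5) and a fold enrichment of 94.4 to 113. Srsf2 (49 to 223), Hnrnpab (112 to 299), Hnrnpa2b1 (85 to 954), Sf3b1 (202 to 524), which encodes the branch-point subunit of SF3, and Hnrnph1 (122 to 586) had the next best mean ranks. The lowest were Hnrnpul2 (7343 to 9626), Snrpb2 (6096 to 9312), Snrpn (5806 to 8305), Sf3a1 (4743 to 7901), Snrpf (3494 to 7224) and Snrpd3 (2813 to 7363). In no library did any of these 6 genes come near the ranks of Srsf7. Snrpn had no peak within 500 bp of its start or end in any post-mitotic list, and 0.745% to 1.58% of its window was covered.

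The strongest peak was not always at the start. Its summit lay within 500 bp of the start in 24 to 35 members per post-mitotic list, and beyond the annotated end in 4 to 14. In Hnrnpa2b1 (a gene of 9461 bp) it lay 9645 to 10374 bp from the start in all 14 lists, and in Hnrnpa3 (10147 bp) 10273 to 11095 bp. In Hnrnpk (12202 bp) it lay 13880 to 14149 bp from the start in 12 of 14 lists. Hnrnpa2b1 had no peak within 500 bp of its start in any of the 14 lists, and Hnrnpf had one in 1 list.

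Between early-G1 and late-G1 several SR genes lost rank, and no gain of a member was called. The change was tested as late-G1 minus early-G1 of the negative log2 rank, averaged over control and auxin, in a limma fit to the 9383 genes with a peak in all 14 lists with Benjamini-Hochberg adjustment. A negative change means a larger rank number, that is, a weaker peak relative to the other genes of the same list. Where stages are called weaker or stronger below, rank is meant. Of the 49 members 8 were called lower (background: 6.07% of genes) and 0 were called higher (background: 4.81%). Called or not, 34 members had a negative and 15 a positive change, against 4643 and 4739 of all genes. An unadjusted p below 0.05 was found for 14 members, all of them lower (background: 2504 of 9383 genes, 1311 of them lower). The 8 were 5 SR genes (Srsf5, Srsf6, Tra2b, Srsf10 and Srsf11), Hnrnpk, and 2 snRNP genes (Snrpa1 and Snrpd3). The median change was -0.84 over 12 SR genes, -0.09 over 17 hnRNP genes, -0.31 over 12 snRNP genes and -0.03 over 8 SF3 genes, compared with -0.27 over all members and 0.0037 over all genes. Of the 12 SR genes 11 had a negative change.

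Srsf5, whose product shuttles between nucleus and cytoplasm, ranked 233 and 306 in control and 209 and 198 in auxin early-G1 libraries. In late-G1 it ranked 640 and 2762 in control and 999 and 857 in auxin libraries. All 4 late-G1 libraries were weaker than all 4 early-G1 libraries, and its rank number was 4.76 times larger on average (log2 change -2.25 ± 0.42 (SE), adjusted p = 0.0087). Fold enrichment likewise did not overlap, with 56.5 to 70.0 in early-G1 and 35.5 to 41.7 in late-G1. Between these stages, in mid-G1, Srsf5 ranked 169 to 387.

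Srsf6, another SR gene, ranked 330 and 291 in control and 465 and 291 in auxin early-G1 libraries. In late-G1 it ranked 2159 and 2428 in control and 612 and 1402 in auxin libraries (log2 change -2.11 ± 0.31 (SE), adjusted p = 0.0030). The groups did not overlap, and the mid-G1 ranks of 338 to 818 lay in the early-G1 range in 5 of 6 libraries.

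Tra2b, which encodes a relative of the fly sex-determination splicing factor Transformer-2, ranked 429 and 318 in control and 485 and 388 in auxin early-G1 libraries. In late-G1 it ranked 811 and 1530 in control and 860 and 1594 in auxin libraries, again with no overlap (log2 change -1.51 ± 0.27 (SE), adjusted p = 0.0070). Hnrnpk, which encodes a poly(C)-binding hnRNP, ranked 181 to 287 in early-G1 and 363 to 1732 in late-G1 (log2 change -1.68 ± 0.31 (SE), adjusted p = 0.0082). Its value came from the peak beyond its end in all 4 early-G1 and 3 of 4 late-G1 libraries, and in late-G1 auxin replicate 1, which held rank 1732, from a summit 847 bp after its start. Without that library the change was -1.34 (adjusted p = 0.021), and with peaks within 500 bp of the start alone the change was -0.93 (adjusted p = 0.11).

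Among the other 4, Srsf10 ranked 840 to 1462 in early-G1 and 2374 to 4565 in late-G1 (log2 change -1.37 ± 0.33 (SE), adjusted p = 0.027). Snrpd3 ranked 2813 to 4702 and then 6729 to 7363 (-0.96 ± 0.19, adjusted p = 0.013). Snrpa1, a protein of the U2 particle, ranked 1133 to 2131 and then 1530 to 4769, with overlap (-1.01 ± 0.28, adjusted p = 0.047). Srsf11 ranked 1462 to 3195 and then 3453 to 4425 (-0.84 ± 0.23, adjusted p = 0.043). The fold enrichment overlapped between early-G1 and late-G1 for Srsf10 (36.4 to 47.4 and 20.1 to 41.4), Snrpa1 (32.2 to 41.9 and 20.7 to 46.2) and Srsf11 (31.0 to 37.1 and 21.6 to 36.0). With start peaks alone Srsf10 (-0.72, adjusted p = 0.18) and Srsf11 (-0.16, adjusted p = 0.78) were not called, while Srsf5, Srsf6, Tra2b, Snrpd3 and Snrpa1 were.

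Members with the largest gains did not pass the test. They were Sf3b2 (0.47 ± 0.37 (SE), adjusted p = 0.46), Sf3b3 (0.40 ± 0.28, adjusted p = 0.40) and Hnrnpa1 (0.39 ± 0.71, adjusted p = 0.78). Of 112 other splicing genes 10 fell and 2 rose. The count of 8 was reduced to 5 without early-G1 control replicate 1, early-G1 control replicate 2, early-G1 auxin replicate 2 or late-G1 auxin replicate 1, and to 4 without early-G1 auxin replicate 1. Srsf5, Srsf6 and Tra2b were called under all 21 alternatives.

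**Figure D3:**
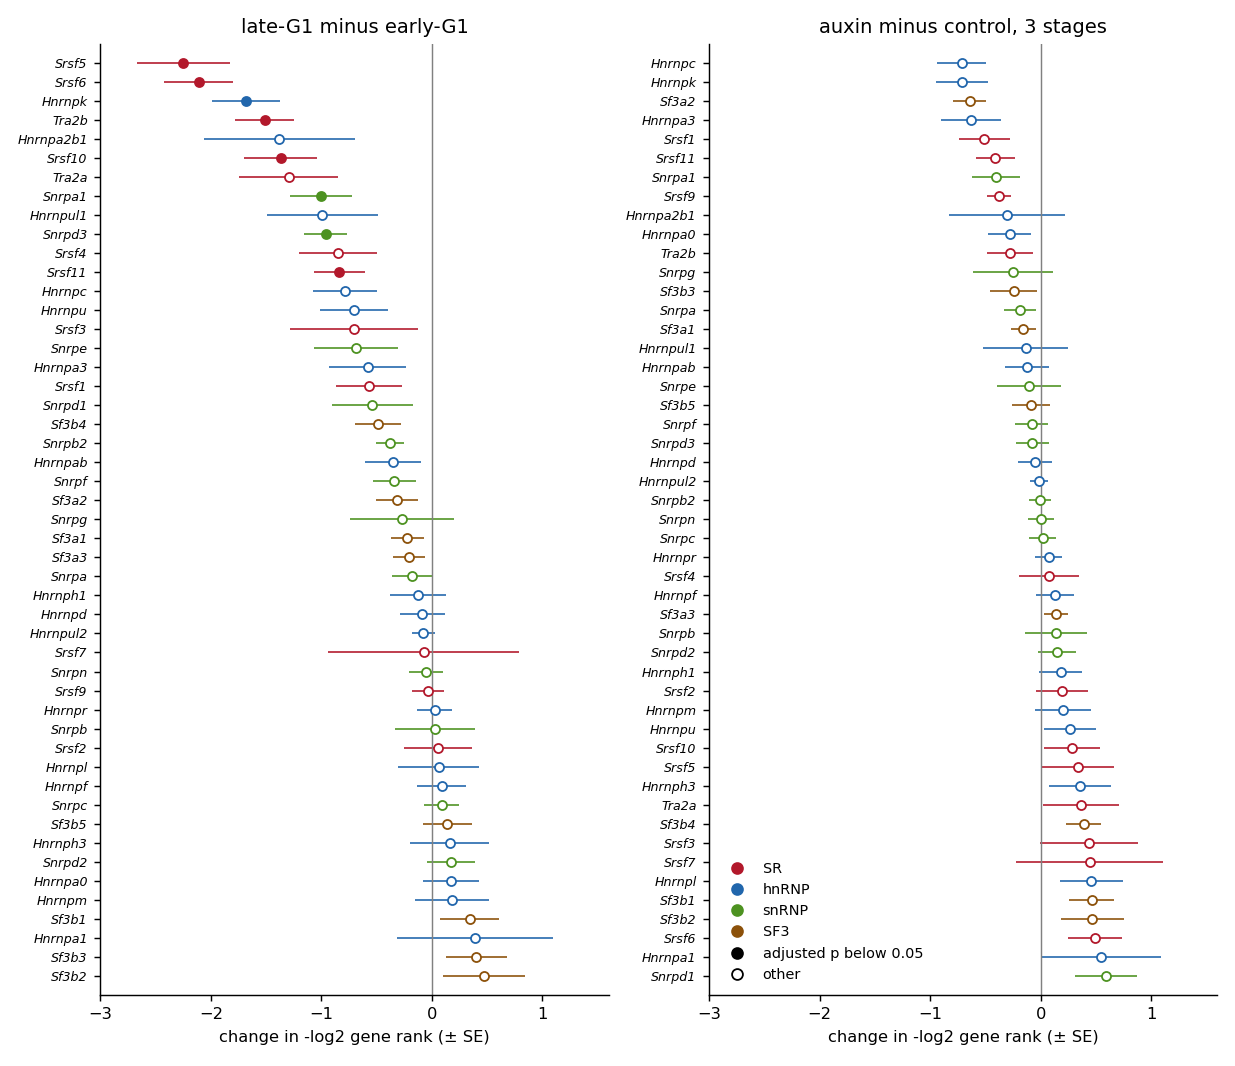
Change in negative log2 gene rank with its standard error (x axis) for the 49 tested members, sorted by size, for late-G1 minus early-G1 (left) and for auxin minus control over the 3 post-mitotic stages (right). Filled points passed adjusted p below 0.05 in the limma fit. On the left 8 members are filled, all below 0, and on the right none is.

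The course was not the same for every member, and some members ranked lowest in mid-G1. The steps from early-G1 to mid-G1 and from mid-G1 to late-G1 were added after the values by stage had been seen. They share the 6 mid-G1 libraries, so a gene with a low value there tends to move in opposite directions in the 2 steps. The share of all genes called in both steps was not counted, so members called in both have no background to be set against. In the first step 8 members fell (background: 6.91%) and 2 rose (background: 4.86%). In the second 5 fell (background: 3.6%) and 4 rose (background: 3.84%). Over the other splicing genes, 14 fell and 2 rose in the first step and 7 fell and 9 rose in the second.

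Srsf4, which encodes a large SR protein, ranked 482 to 1329 in early-G1, 2326 to 5902 in mid-G1 and 890 to 1814 in late-G1. Mid-G1 overlapped neither of the other stages (log2 change -2.27 ± 0.32 (SE), adjusted p = 0.0021, and then 1.42 ± 0.32, adjusted p = 0.027). Hnrnph1 ranked 122 to 205, then 323 to 586 and then 148 to 298, again without overlap (-1.43 ± 0.23, adjusted p = 0.0041, and 1.31 ± 0.23, adjusted p = 0.0097). Srsf2 ranked 49 to 101, 106 to 223 and 49 to 92 (-1.06 ± 0.28, adjusted p = 0.035, and 1.12 ± 0.28, adjusted p = 0.039). Sf3a3, an SF3a subunit, ranked 2702 to 4228, 5058 to 7064 and 3414 to 4370 (-0.78 ± 0.13, adjusted p = 0.0050, and 0.57 ± 0.13, adjusted p = 0.029).

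Srsf3 was weaker in mid-G1 than in all 4 early-G1 and 3 of 4 late-G1 libraries, but passed the test in neither step with all libraries included. It ranked 148, 112, 125 and 110 in early-G1 and 262 to 561 in mid-G1 (-1.73 ± 0.53 (SE), adjusted p = 0.062). In late-G1 it ranked 100 and 1038 in control and 148 and 104 in auxin libraries, so that late-G1 control replicate 3 stood apart from the other 3 (1.03 ± 0.53, adjusted p = 0.30). Without that library, which leaves 1 late-G1 control and assumes that it varies like the other groups, the changes of Srsf3 were -1.73 and 1.87. No late-G1 library enters the first step, and its change was -1.73 without either late-G1 control library, as with all libraries. Only its SE differed (0.22 against 0.53), so these fits add no support for the first step. With all libraries the first step was called with array weights (adjusted p = 0.010) and with ranks among all peaks (adjusted p = 0.015). In late-G1 control replicate 3, Srsf5, Hnrnpa1, Snrpb and Tra2a also had their weakest late-G1 rank, while Hnrnpab and Snrpe had their best there. These are examples, and members were not counted in this way by library.

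A smaller set was strongest in mid-G1. Snrpb, which encodes the SmB protein, ranked 2357 to 3820 in early-G1, 770 to 1716 in mid-G1 and 1814 to 5132 in late-G1 (log2 change 1.51 ± 0.33 (SE), adjusted p = 0.017, and then -1.48 ± 0.33, adjusted p = 0.026). Hnrnpa3 ranked 363 to 1323, 238 to 502 and 874 to 2119 (1.13 ± 0.32, adjusted p = 0.048, and -1.71 ± 0.32, adjusted p = 0.014). The values of Hnrnpa3 come from the peak beyond its end, and the first step was -0.25 with start peaks alone. Srsf5 and Srsf6 fell in the second step only, by -2.29 ± 0.38 (adjusted p = 0.0077) and -1.79 ± 0.29 (adjusted p = 0.0061). In each step the counts were smaller without some libraries, 4 of 10 at the lowest in the first step (without either early-G1 control library or early-G1 auxin replicate 2, and 6 without early-G1 auxin replicate 1) and 5 of 9 in the second (without any of the 3 mid-G1 auxin libraries or late-G1 auxin replicate 2).

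**Figure D4:**
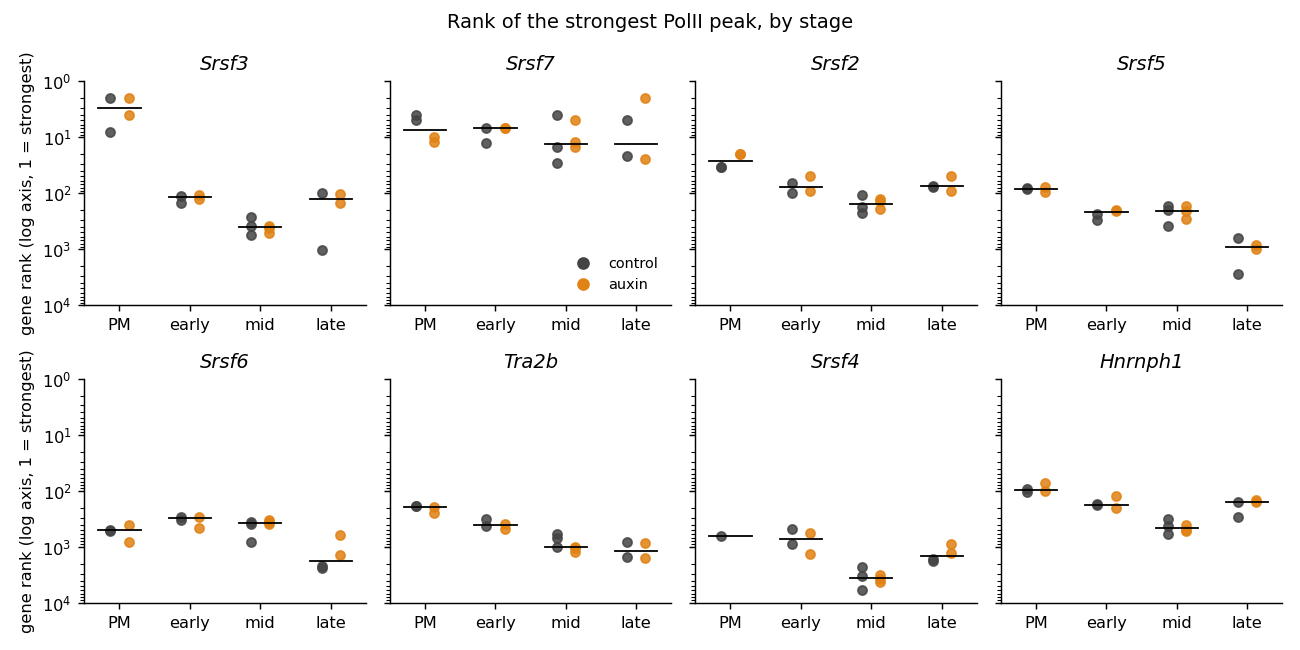
Rank of the strongest PolII peak among detected genes (y axis, log scale, 1 at the top) in prometaphase (PM), early-G1, mid-G1 and late-G1 for 8 members. Points are single control or auxin libraries and bars are medians over the libraries of a stage with a peak. Srsf7 stays between 2 and 29 in every library, Srsf5 and Srsf6 are lowest in late-G1 and Srsf4 and Hnrnph1 in mid-G1.

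CTCF depletion by auxin left the ranks of the splicing genes without a called change. Averaged over the 3 post-mitotic stages, 0 of 49 members passed the limma test (background: 0.714% of genes, 23 lower and 44 higher). An unadjusted p below 0.05 was found for 8 members (background: 919 of 9383 genes). Within early-G1, mid-G1 and late-G1 the count was 0, 0 and 0 (background: 0.0746%, 0.224% and 0.277%). The late-G1 and 3-stage comparisons, and the interaction below, take late-G1 auxin replicate 1 as labelled. Below 0.05 unadjusted were 3, 5 and 7 members (background: 403, 759 and 855 of 9383 genes). The median change was 0.0005 over members and -0.0049 over all genes. Of the other splicing genes 0 of 112 were called, with 12 below 0.05 unadjusted.

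The members with the largest values are given here without a call. Hnrnpc, an hnRNP that binds uridine-rich introns, ranked 944 and 1640 in control and 3924 and 3649 in auxin early-G1 libraries, 1323, 1700 and 2968 against 2322, 3526 and 3675 in mid-G1, and 3140 and 5076 against 3710 and 3311 in late-G1. The conditions did not overlap in early-G1 and overlapped in the other stages (-0.71 ± 0.22 (SE), adjusted p = 0.28). Its summit lay beyond the end of the gene in 13 of 14 lists, and with start peaks alone the value was 0.027. Hnrnpk had -0.71 ± 0.24 (adjusted p = 0.34), and Sf3a2, an SF3a subunit, -0.64 ± 0.15 (adjusted p = 0.11). The summit used for Sf3a2 lay at -4257 to -3160 bp from its start in 9 of 14 lists, and with summits inside the window the value was 0.045.

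On the other side Snrpd1, an Sm protein gene, had 0.59 ± 0.28 (SE, adjusted p = 0.53), Hnrnpa1 0.55 ± 0.54 (adjusted p = 0.80) and Srsf6 0.49 ± 0.24 (adjusted p = 0.55). Srsf6 ranked 2159 and 2428 in control and 612 and 1402 in auxin libraries of late-G1, and the conditions overlapped in early-G1 and mid-G1. Srsf7 ranked 13 and 7 in control and 7 and 7 in auxin libraries of early-G1, 15, 29 and 4 against 15, 12 and 5 in mid-G1, and 22 and 5 against 25 and 2 in late-G1, so that the conditions overlapped at each stage. Without late-G1 control replicate 2, which leaves replicate 3 as the only late-G1 control and assumes that it varies like the other groups, Srsf3 was called higher over the 3 stages (1.00 ± 0.20, adjusted p = 0.041) and in late-G1 (3.06 ± 0.41, adjusted p = 0.0075), and Hnrnpab lower in late-G1 (-1.24 ± 0.23, adjusted p = 0.024).

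The early-G1 to late-G1 course was also compared between conditions. In the interaction 0 of 49 members were called (background: 0.0107% of genes), with 5 below 0.05 unadjusted (background: 505 of 9383 genes). The change of Srsf6 was -2.89 ± 0.44 (SE) in control and -1.33 ± 0.44 in auxin libraries, a difference of 1.55 ± 0.63 (adjusted p = 0.90). That of Srsf5 was -2.32 ± 0.59 in control and -2.19 ± 0.59 in auxin libraries, and that of Tra2b was -1.59 ± 0.38 and -1.43 ± 0.38. Without late-G1 control replicate 2 the interaction of Srsf3 was called (adjusted p = 0.049).

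The covered length of the gene windows gave few calls. For auxin over 3 stages 0 of 49 members were called (background: 1.58%), and 1 had an unadjusted p below 0.05 (background: 1175 of 9383 genes). From early-G1 to late-G1 3 fell (background: 13.7%) and 0 rose (background: 12%). They were Tra2a (log2 change -1.13 ± 0.26 (SE), adjusted p = 0.0070), Srsf4 (-0.76 ± 0.19, adjusted p = 0.0096) and Sf3a1 (-0.56 ± 0.19, adjusted p = 0.040). Tra2a was covered over 44.3% to 61.0% of its window in early-G1 and 14.8% to 39.9% in late-G1, and Srsf4 over 69.1% to 80.8% and 27.7% to 59.4%. Neither overlapped between the stages. These values were centred on the median gene of each library, and without centring 0 members were called. Without mid-G1 control replicate 1, the smallest post-mitotic list, 8 members were called. Windows such as that of Hnrnpab were covered over 99.1% to 100% in every post-mitotic list and could not have shown a gain.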

How the data were processed

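PolII ChIP-seq peak lists of 18 libraries were analysed, and the 4 input libraries entered only through the authors' peak calling. Per the labels and the study's methods, the authors aligned reads to mm9 with Bowtie2 2.2.9, removed low-quality and duplicate reads with SAMtools 0.1.19, filtered intervals with bedtools 2.27.1 and called narrow peaks in each library, without pooling replicates, with MACS2 2.1.0 against the input of the stage. One late-G1 replicate was left out by the authors for a technical error. The deposited lists give for each peak a fold enrichment (a linear ratio over local background), the -log10 p-value and -log10 q-value, a score and a summit. Fold enrichment decided the ranks, and the -log10 q-value was used for one stricter alternative. The lists hold no read totals, and no counting interval was given. The study's reporting summary gives read totals per library, which differ between libraries and were not used here.

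Genes were the protein-coding autosomal genes of GENCODE vM1. Their windows, ranks and covered bases were computed with Python 3.11.15, and the fits with limma 3.58.1 in R 4.3.3 (lmFit on 6 group means, eBayes) over 9383 genes, adjusted by Benjamini-Hochberg and called at an adjusted p below 0.05. The procedure was tested on simulated data. Covered bases were centred per library on the median tested gene. Members and lists were chosen with earlier results of these data known. The text names members by fixed rules: those called, or the 3 largest changes per direction where fewer were called, up to 12 in prometaphase by number of libraries and mean rank, and the 6 best and 6 worst mean ranks. Alternatives were another rank scale, other windows, stricter peaks, a replicate term, array weights and each library left out. Promoters were read from the mm9 genome.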

Additional observations from a re-analysis of the deposited data

How the results depend on the processing

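Of the counts of called members, the 24 in all 4 prometaphase lists became 17 with peaks at the start, and the 34 with start and end peaks stayed within 1.5 times under both alternatives. For early-G1 to late-G1 rank, 8 members became 5 with peaks within 500 bp of the start, 5 with summits inside the window (an alternative added after seeing the data), and 4 to 8 with 1 library left out. For the steps added later, the normal score gave 5 instead of 10 and 5 instead of 9, array weights gave 4 instead of 9, and leaving out 1 library gave 4 to 10 and 5 to 9. For auxin rank, leaving out 1 library gave 0 to 1 over the 3 stages, 0 to 2 in late-G1 and 0 to 1 for the interaction. For auxin coverage, array weights called 1 member (Snrpa1). For early-G1 to late-G1 coverage, the 3 members became 0 without centring, 10 with array weights, 5 with the replicate block and 2 to 8 with 1 library left out (8 without mid-G1 control replicate 1). The cause was not tested.

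Some named values changed sign: Hnrnpc auxin rank was 0.027 and the Hnrnpa3 early-G1 to mid-G1 rank -0.25 with start peaks, Sf3a2 auxin rank was 0.045 with summits inside the window, and Hnrnpa1 early-G1 to late-G1 rank was -0.25 without late-G1 control replicate 2 and 1.03 without late-G1 control replicate 3. Across named members and alternatives 650 values kept direction and call status, 159 kept direction but lost the call and 4 changed sign. The 650 include the auxin values and the early-G1 to late-G1 gains, which had no call to lose.

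Same-numbered control and auxin libraries showed correlations of their deviations of -0.0030 to 0.29, so numbers were not taken as pairs. With the replicate block, 7 members instead of 8 were called for early-G1 to late-G1 rank, 7 instead of 10 and 8 instead of 9 for the 2 steps, and 0 for each auxin rank comparison. Precision is limited by 2 or 3 libraries per group, ranks are relative within a list, and a gene without a peak is below the calling threshold, which does not show that PolII was absent.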
